A study of Schmidtea polychroa with 132 samples.

Results

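The step from stage 2 to stage 3 was measured in single embryos of Schmidtea polychroa, a freshwater planarian, with 29 embryos labelled stage 2 and 22 labelled stage 3. These 51 libraries were taken from 132 by their stage label alone. Neither group carried a mutation or a treatment: egg capsules were kept at 20 °C, opened at points spread over 15 days of development, and every embryo was assigned a stage, frozen and sequenced alone. The labels name no age in days and no capsule of origin, so p-values weigh a difference against the spread between embryos, and embryos from 1 capsule would not be independent. CEL-Seq, the method used, barcodes the RNA of a sample and reads transcripts at their 3′ end, so a count stands for a read of 1 transcript model.

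Planarian embryos of this genus develop inside a capsule packed with separate yolk cells that supply the food. Early blastomeres divide dispersed among those yolk cells, and the embryo builds a temporary pharynx through which it later swallows them. RNA from an early embryo can therefore come from the embryo or from yolk cells that cling to it. The transcript models carry numbers and are not paired with gene names, so no function can be given for them. They are instead described by where else they were found: in 4 libraries of yolk, in 6 embryos of stage 1, and in stages 4 to 8.

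The sample numbers of the 51 embryos form 2 runs that share no library. Low-numbered embryos (numbers 4 to 30) comprised 17 of stage 2 and 10 of stage 3, and high-numbered embryos (109 to 132) comprised 12 of each. Transcript totals ranged from 14491 to 1031677 counts, with medians of 31071 and 102636 in low-numbered stage 2 and stage 3, and of 205786 and 277530 in the high-numbered stages. Within a run, totals did not differ detectably between stages (log10 difference 0.15 and 0.17, 2 permutation tests, both adjusted p = 0.443). Spike-in RNA gave 105084 to 404424 counts in low-numbered libraries and 14190 to 49135 in high-numbered ones, and 0 of 63 spike-ins changed between stages (0% of those tested; edgeR; 3 passed at an unadjusted p under 0.05; none by DESeq2, whose count was 0). Yolk-high transcripts, those higher in yolk than in stage 8 (2207 of 11070, 19.9%), took a median of 60.9% of counts in low-numbered stage 2 and 50.7% in stage 3, and of 73.6 and 69.1% in the high-numbered stages. Over both runs together the order was opposite (62.7 and 67.8%), and the difference was not tested. Levels are given as CPM, the transcript's count scaled to a common library total, and 3 counts correspond to between 2.91 and 207 CPM depending on the library.

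Between the stages, 27 of 1811 tested transcripts changed (edgeR quasi-likelihood test with a term for the run, Benjamini-Hochberg adjusted p under 0.05), which is 1.49% of those tested. Of these, 20 fell (1.1%) and 7 rose (0.387%). The falls were of 2 kinds. A set of 16 was poor in yolk, with a stage 2 level 11.4 to 212 times that of yolk, and fell by a log2 change of -1.89 to -3.30 (median -2.56). The other 4 were rich in yolk, at 0.486 to 1.54 times the yolk level, and fell less, by -0.99 to -1.46. The ratio of 5 that separates the kinds was set after the levels had been seen, so the kinds are a description. The count leaned on single embryos: it was 12 without stage 2 replicate 20, 15 without stage 2 replicate 7, 17 without stage 2 replicate 8, 16 without stage 3 replicate 4 and 17 without stage 3 replicate 6, and it was 46, with 27 rises, without stage 2 replicate 5. In bulk RNA of whole embryos, fewer cells of a type and less RNA per cell cannot be told apart.

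**Figure D1:**
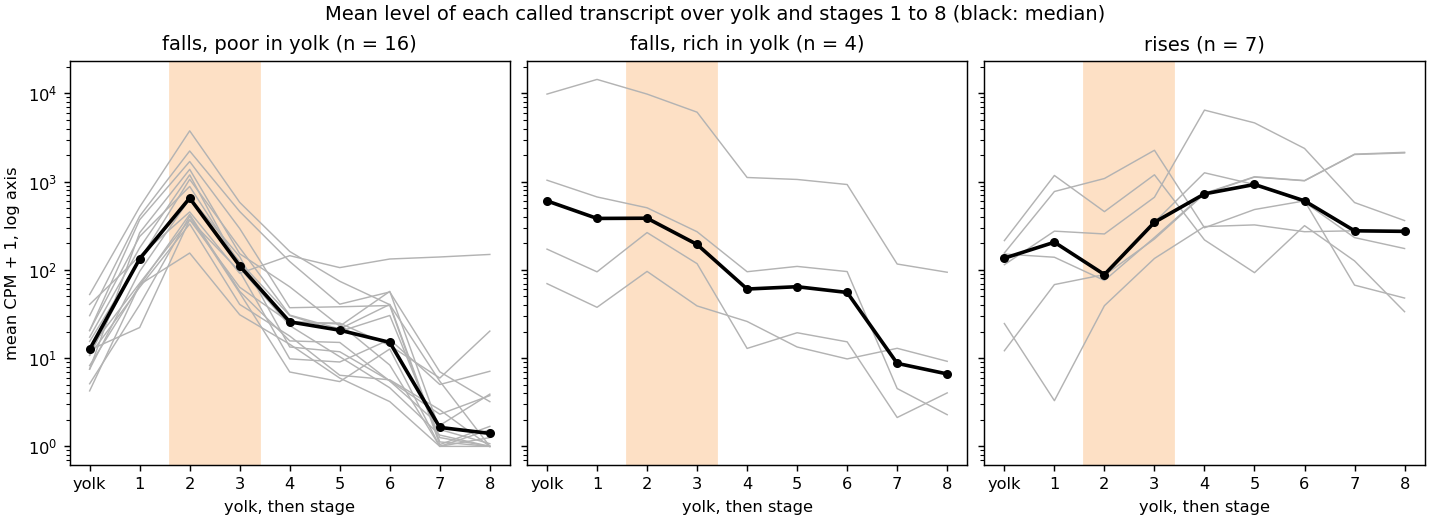
Mean CPM plus 1 (log axis) of each called transcript in yolk and in stages 1 to 8, one grey line per transcript, with the median in black and stages 2 and 3 shaded. The 16 yolk-poor falls peak at stage 2, the 4 yolk-rich falls stand at 68.8 to 9821 CPM in yolk, and 5 of the 7 rises stand higher in stage 4 than in stage 3.

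By mean level, the 16 yolk-poor falls peaked at stage 2. Their mean levels ran from 154 to 3765 CPM in stage 2 and from 30.0 to 581 CPM in stage 3. In stage 1 their means were 21.2 to 515 CPM, and all 16 means were higher in stage 2, by 2.30 to 17.4 times. The stage 1 means rest on few counts. A stage 1 embryo had counts for 6 to 16 of the 16 (median 11.5), and 3 counts correspond there to 6.37 to 352 CPM. FW_v1_tr_10236, with the lowest mean, had no more than 2 counts in any stage 1 embryo. In stage 4 they averaged 5.96 to 161 CPM, and 15 of 16 were under 10 CPM in stage 7 and 14 of 16 in stage 8. Outside stages 2 and 3, 15 of them were highest in stage 1 and 1 was highest in stages 7 and 8. Yolk held 3.25 to 51.6 CPM of them. A level higher in stage 2 than in stage 3, and low in yolk, follows from how the set was chosen. The low level in late embryos did not hold for every member. The 1 highest in stages 7 and 8 averaged 139 and 149 CPM there, against 90.4 CPM in stage 3.

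The largest fall was that of FW_v1_tr_12709. In low-numbered embryos it ranged from 0 to 8302 CPM in stage 2 (median 515) and from 4.06 to 239 CPM in stage 3 (median 83.2). In high-numbered embryos it ranged from 0 to 1732 CPM in stage 2 (median 83.7) and from 0 to 711 CPM in stage 3 (median 12.3). The stages overlapped in both runs, with some stage 2 embryos as low as those of stage 3. The fitted log2 change was -3.30 ± 0.79 (edgeR, SE; adjusted p = 0.0142), and 3 of 4 yolk libraries held no count of it. Of 60 fits (the one reported, 8 with another setting and 51 that left out 1 embryo), 3 lost the call, among them the one without stage 2 replicate 20 (edgeR adjusted p = 0.0533). FW_v1_tr_02992, next in size, ran from 58.0 to 6757 CPM in low-numbered stage 2 (median 899) against 20.3 to 667 CPM in stage 3 (median 158). In the high-numbered run its range was 5.79 to 2715 CPM in stage 2 (median 246) and 0 to 623 CPM in stage 3 (median 19.1). It changed by -3.05 ± 0.63 in log2 (edgeR, SE; adjusted p = 0.0039), and the call stood in each of these 60 fits.

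Among the falls not yet named, FW_v1_tr_01099 and FW_v1_tr_01056 had the lowest unadjusted p in the weaker of the 2 runs. Fitted in the low-numbered run alone, both passed (edgeR adjusted p = 0.0229 and 0.0094). In the high-numbered run alone neither passed (edgeR adjusted p = 0.60 for both). FW_v1_tr_01099 lay between 137 and 5669 CPM in low-numbered stage 2 (median 581) and between 12.2 and 680.02 CPM in stage 3 (median 129.7). In high-numbered embryos it lay between 50.6 and 2544 CPM in stage 2 (median 246) and between 0 and 686 CPM in stage 3 (median 90.3). Its log2 change was -2.55 ± 0.66 in the low-numbered run and -2.11 ± 0.67 in the high-numbered run (edgeR, SE). FW_v1_tr_01056 was the most abundant of the 16, with 334 to 16054 CPM in low-numbered stage 2 (median 3454) and 82.6 to 2645 CPM in stage 3 (median 278). Its high-numbered range was 228 to 15028 CPM in stage 2 (median 325) and 39.7 to 2029 CPM in stage 3 (median 215). The wide stage 2 range of each, with a highest embryo far above the median, recurred across the set. FW_v1_tr_10236, in the middle of the falls by size, ranged from 0 to 2406 CPM in stage 2 (median 129) and from 0 to 320.1 CPM in stage 3 (median 55.3). It changed by -2.37 ± 0.61 in log2 (edgeR, SE; adjusted p = 0.0234), a call lost in 12 of the 60 fits.

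The signal came from a portion of the stage 2 embryos. Uneven levels were common, as a transcript's 7 highest stage 2 embryos of 29 held much of its summed CPM. The median was 58.0% over all 1811 tested transcripts and 67.6% over the 16 yolk-poor falls, against 24.1% for an even spread. Of all tested transcripts, 50.1% were at or above the least concentrated of the 16. Uneven levels of the 16 were not particular to stage 2. In stage 3 their 7 highest embryos of 22 held a median of 78.8%. Summed over the 16 yolk-poor falls, the share of transcript counts was above the highest stage 3 embryo in 14 of 29 stage 2 embryos. That highest stage 3 value was 0.807% (95% exact binomial interval 0.768 to 0.847%, counting error only) in replicate 21. Since the 16 were chosen on these embryos, the shares are given as a description, with no test. Among the 17 low-numbered stage 2 embryos, 10 exceeded it. Replicate 7 was highest at 5.62% (5.32 to 5.94%). Replicate 2 held 4.26%, replicate 13 4.13%, replicate 11 4.00%, replicate 9 3.64%, replicate 15 3.57% and replicate 14 3.32%. Replicates 10, 8 and 4 were lower, at 1.797, 1.48 and 1.13%. The other 7 low-numbered embryos lay between 0.296 and 0.540%, within the range of stage 3.

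Among the 12 high-numbered stage 2 embryos, 4 exceeded that value, and they were numbers 109 to 112, the lowest numbers of the run. Their shares were 2.45, 1.71, 3.41 and 1.30%, in the order of their numbers. The other 8, numbers 113 to 120, lay between 0.0898 and 0.618%. No stage 2 embryo fell between 0.618 and 1.13%. In each of the 14, 5 to 16 of the 16 transcripts stood above every stage 3 embryo, against 0 to 2 in each of the other stage 2 embryos. The embryos were sorted by the sum of these same transcripts, so these numbers are no separate support. High and low embryos were present in both runs, and the labels give no difference between them beyond the sample number. In the low-numbered run the low embryos had totals of 15194 to 31071 counts, except replicate 5 at 119738. The high embryos there had 16622 to 359081 counts. In the high-numbered run totals were 46778 to 553034 counts for the high and 39946 to 865302 for the low embryos. The relation of this share to depth was not tested.

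**Figure D2:**
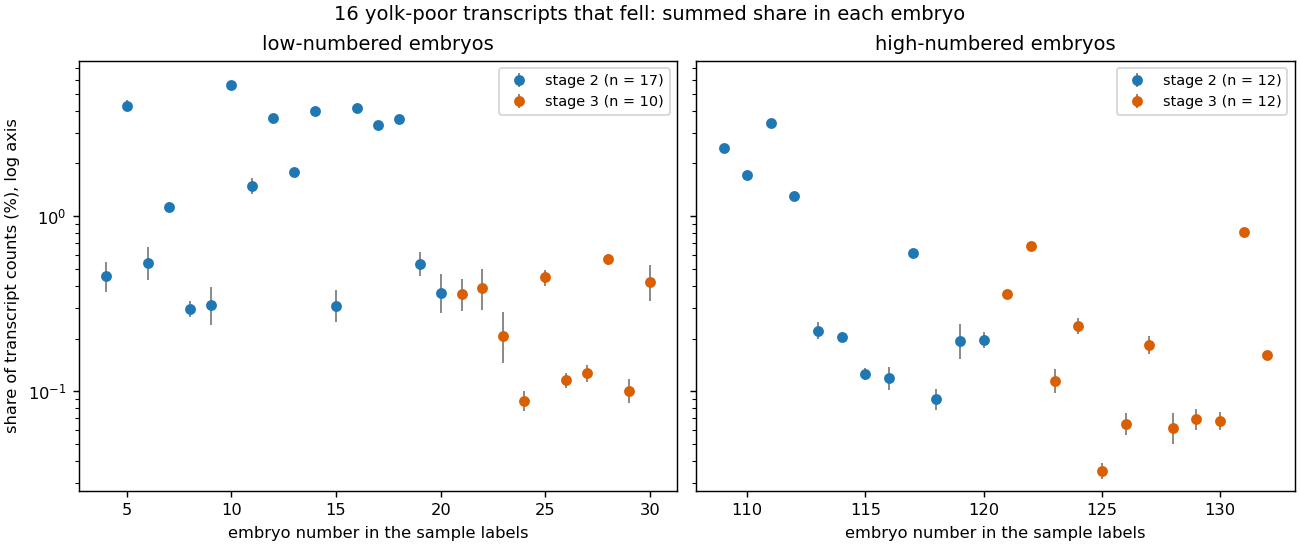
Summed share of transcript counts (percent, log axis) in the 16 yolk-poor falls, by the embryo's number in the sample labels, for 29 stage 2 and 22 stage 3 embryos in 2 runs of numbers; bars are 95% exact binomial intervals. In stage 2, 14 embryos lie above 1% and the rest reach down to 0.0898%, while stage 3 ends at 0.807%.

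Yolk and stages 4 to 8 held little of the set. The share was 0.00764 to 0.634% in 6 stage 1 embryos (median 0.229%). That median was above those of high-numbered stage 2 (0.214%) and of stage 3 (0.172%), and below that of low-numbered stage 2 (1.48%). The median share was 0.0466% for stage 4, 0.0270 and 0.0286% for stages 5 and 6, and 0.0167 and 0.0191% for stages 7 and 8. Of the 4 yolk libraries, 3 lay between 0.00362 and 0.00556%, and replicate 1 (sample number 32) was at 0.0898%. The low-numbered libraries were the shallower ones, and the 3 low-numbered stage 1 embryos held 0.203 to 0.634%. The part of depth in the lower end of these shares was not tested.

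**Figure D3:**
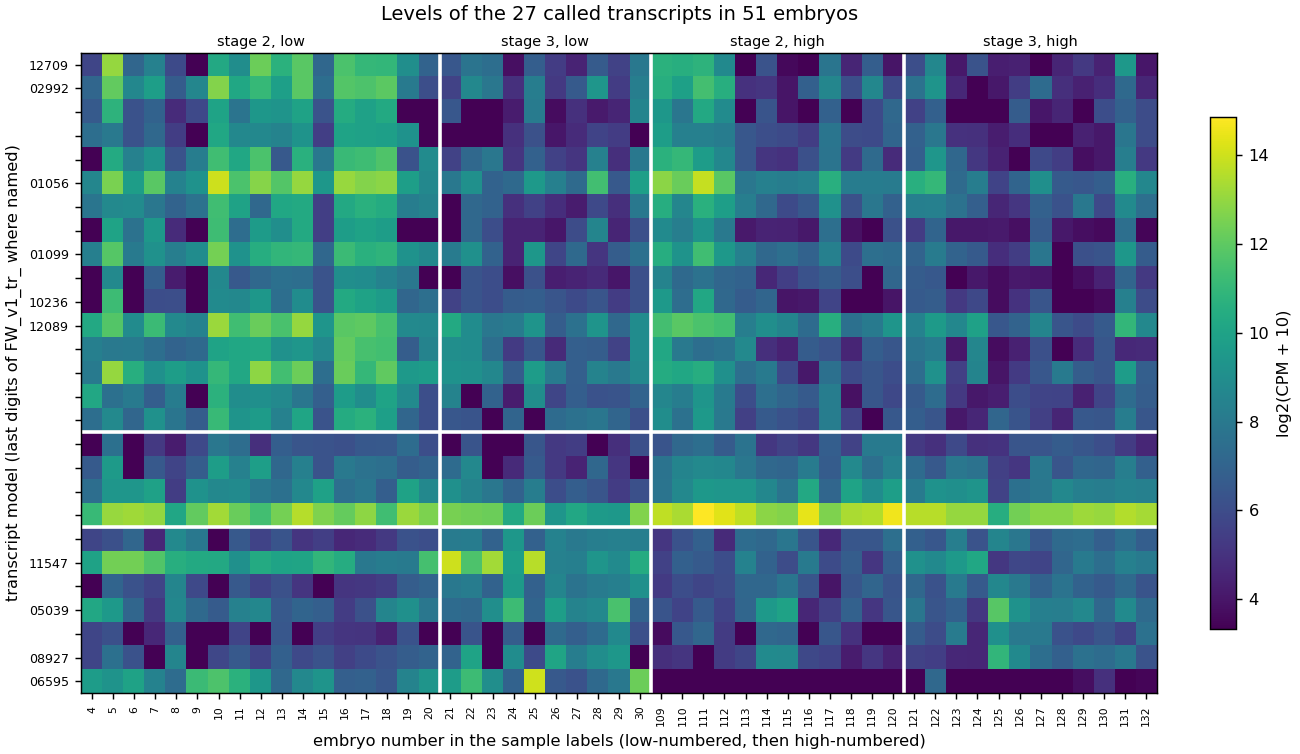
Level of the 27 called transcripts, as log2(CPM + 10), in 51 embryos ordered by run, stage and label number; white lines separate the 16 yolk-poor falls, 4 yolk-rich falls and 7 rises, and the 4 groups of embryos. The yolk-poor block is bright in the same stage 2 columns, among them numbers 109 to 112, and dim in the other stage 2 columns and in stage 3.

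The yolk-poor falls varied together from embryo to embryo. Within stage 2 the median Spearman correlation between pairs of the 16 was 0.74 over 17 low-numbered embryos and 0.77 over 12 high-numbered embryos, against 0.03 and 0.04 between all tested transcripts. Within stage 3 it was 0.26 over 10 and 0.51 over 12 embryos. The other called sets also varied together in stage 2. In low- and high-numbered embryos the median was 0.32 and 0.52 between the yolk-rich falls, and 0.28 and 0.26 between the rises. These values share libraries and depth, and the members were chosen on the same embryos. Of 1811 transcripts, 18 followed the summed share of the other yolk-poor falls at a correlation of 0.6 or more in both runs of stage 2, and 14 of the 18 were yolk-poor falls themselves. The other 4 were not called, though each had a lower fitted level in stage 3 (log2 change -0.94 to -1.41) and an unadjusted p under 0.05. The transcript most like FW_v1_tr_12709 over the 29 stage 2 embryos was one of these 4, FW_v1_tr_06966 (Spearman 0.89), followed by FW_v1_tr_01056 and FW_v1_tr_12089 (both 0.88). FW_v1_tr_06966 had a median of 397 CPM in stage 2 and 109 CPM in stage 3, and a fitted change of -1.41 ± 0.47 in log2 that did not pass (edgeR, SE; adjusted p = 0.123). FW_v1_tr_12089 ranged from 152 to 8934 CPM in stage 2 (median 1487) and from 52.9 to 1992 CPM in stage 3 (median 355), and fell by 2.25 on the log2 scale (edgeR, SE 0.45; adjusted p = 0.00215).

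The 4 yolk-rich falls had another course over the series. All 4 were yolk-high, 3 were highest in yolk outside stages 2 and 3 and 1 in stage 1, and they averaged 95.1 to 9822 CPM in stage 2 and 38.0 to 6125 CPM in stage 3. Their summed share had a median of 0.673% in low-numbered stage 2 and 0.33% in stage 3, and of 1.35 and 0.919% in the high-numbered stages. Yolk itself held 1.03 to 1.20%. Most of these sums came from 1 of the 4, which averaged 9822 CPM in stage 2 and 9821 CPM in yolk. Each of the others averaged at most 504 CPM in stage 2 and 1037 CPM in yolk. The counts of another of the 4 agreed within binomial noise with those of 2 transcript models that were not called, so its own level is uncertain.

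The 7 rises had log2 changes of 1.40 to 2.47, and 5 of them averaged more in stage 4 than in stage 3. Outside the step, and leaving out the library labelled protist, 3 were highest in stages 4 to 6, a pair in stages 7 and 8 and a pair in stage 1. Of the stage 1 pair, FW_v1_tr_06595 was far higher in the protist library. The pair highest in stages 7 and 8 had counts that agreed within binomial noise over all libraries. How reads were divided between these 2 is therefore uncertain. FW_v1_tr_08927 ranged from 0 to 376 CPM in low-numbered stage 2 (median 65.8) and from 0 to 1076 CPM in stage 3 (median 380.2). In high-numbered embryos it ranged from 0 to 447 CPM in stage 2 (median 27.9) and from 13.5 to 1914 CPM in stage 3 (median 133). The medians were higher in stage 3 in both runs, although the ranges overlapped. The rise was 2.13 ± 0.52 in log2 (edgeR, SE; adjusted p = 0.0162), and 3 of the 60 fits lost the call. Without stage 3 replicate 15 it was 1.46 (edgeR adjusted p = 0.146). In stage 4 it reached 746 to 2018 CPM and in yolk 5.82 to 15.3 CPM.

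FW_v1_tr_05039, the rise of middle size, had fitted log2 changes of 1.54 in the low-numbered and 1.74 in the high-numbered run. It had a median of 143 CPM in low-numbered stage 2 and 379 CPM in stage 3, and of 72.7 and 260.1 CPM in the high-numbered stages. It was far higher in stage 4, at 2491 to 14656 CPM. Over both runs it rose by 1.79 ± 0.49 in log2 (edgeR, SE; adjusted p = 0.0409), and 40 of the 60 fits lost the call. FW_v1_tr_11547 rose by 1.42 ± 0.39 in log2 (edgeR, SE; adjusted p = 0.0409), and 22 of the 60 fits lost the call. Its median in low-numbered embryos was 1292 CPM in stage 2 and 1124 CPM in stage 3, opposite to the fitted rise, while the highest embryo of each stage held 5475 and 16016 CPM. In the high-numbered run the medians were 91.3 and 262 CPM.

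The rise with the largest fitted change, FW_v1_tr_06595, was found mostly in one run. It had counts in 27 of 27 low-numbered embryos and in 4 of 24 high-numbered ones, where all 12 stage 2 embryos were at 0. In low-numbered embryos the median was 602 CPM in stage 2 and 375 CPM in stage 3, opposite to the fitted rise of 2.47 ± 0.63 in log2 (edgeR, SE; adjusted p = 0.0218). Stage 3 replicate 5 alone held 16778 CPM. Without it the log2 change was 1.64 (edgeR adjusted p = 0.315), and limma-voom gave 0.39 (adjusted p = 0.85). The same transcript reached 226288 CPM in the library labelled protist, and the part of protist RNA in its level in embryos was not tested.

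The step was also fitted in each run alone. In low-numbered embryos 9 of 545 transcripts fell (1.65%) and 0 rose (DESeq2 called 1 rise and 14 falls). At an unadjusted p under 0.05, 29 were higher (5.32%) and 28 lower (5.14%) in stage 3. In high-numbered embryos 0 of 2325 were called (0%; the lowest adjusted p was 0.258, and DESeq2 called 11). At an unadjusted p under 0.05 there were 143, of which 84 were higher (3.61%) and 59 lower (2.54%) in stage 3. The step did not differ detectably between runs: 0 of 1811 interaction terms passed (0%; 59 at an unadjusted p under 0.05; 0 by DESeq2). Over 526 transcripts tested in both runs, 320 (60.8%) had the same direction. Among them, 24 were lower in low-numbered stage 3 at that unadjusted threshold, and 24 of the 24 also had a lower fitted level in high-numbered stage 3. Of 28 that were higher in the low-numbered run, 20 were higher in the other. With the choice made in high-numbered embryos, 26 of 28 lower and 9 of 11 higher transcripts had the same direction in low-numbered ones. Without the called transcripts, 305 of 511 (59.7%) shared a direction, and so did 12 of the 12 uncalled ones that were lower in the low-numbered run and 18 of the 26 (69.2%) that were higher.

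**Figure D4:**
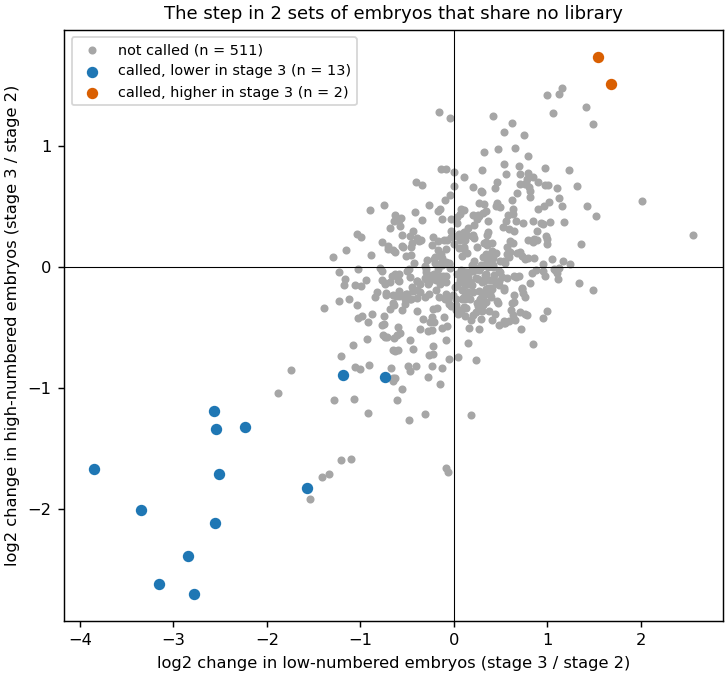
Log2 change from stage 2 to stage 3 in low-numbered (horizontal) and high-numbered embryos (vertical) for 526 transcripts tested in both. The 13 called falls lie in the lower left and the 2 called rises in the upper right, and 320 of 526 points share a direction.

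Summed shares of transcripts chosen in one run were tested in the embryos of the other, which took no part in the choice (unadjusted p under 0.01 for the choice, 4 permutation tests, two-sided). The 14 falls chosen in low-numbered embryos had a median share of 0.189% in high-numbered stage 2 and 0.134% in stage 3, a log2 difference of means of -1.31 (p = 0.062, adjusted p = 0.198). The 17 falls chosen in high-numbered embryos had medians of 6.33% in low-numbered stage 2 and 2.55% in stage 3, a difference of -0.86 (adjusted p = 0.198). A single yolk-high transcript model made up 48.0% of that sum. The rises differed by 0.31 (adjusted p = 0.200) and 0.50 (adjusted p = 0.198). All 4 differences had the direction of the choice and none passed. For the falls, 7 of 12 high-numbered and 6 of 10 low-numbered stage 3 embryos lay below the stage 2 median. For the rises, 7 of 12 and 6 of 10 lay above it. Outside the yolk-high transcripts, only 3 of these 17 remained, and their share of the rest was lower by 2.20 on the log2 scale, with 9 of 10 stage 3 embryos below the stage 2 median (permutation test, adjusted p = 0.00272). The other 3 sums measured in that way did not pass (adjusted p = 0.104, 0.220 and 0.346).

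Among stage 2 embryos, the summed share of the falls chosen in the other run was compared with depth and yolk (4 relations). For low-numbered embryos this list is mostly yolk-high, so it does not measure the yolk-poor set: replicates 13, 14 and 15 held 1.99, 2.93 and 2.37% of counts in it and replicate 6 held 10.1%, whereas for the yolk-poor set replicate 6 held 0.311%. In 17 low-numbered embryos the share of this list went down with the log10 transcript total (Pearson r = -0.83, Spearman rho = -0.87, permutation adjusted p = 1e-04 and 8e-05; r = -0.86 without the 2 embryos farthest from the median total). It went up with the share of yolk-high transcripts (r = 0.85, rho = 0.75, permutation adjusted p = 4e-05 and 0.0016; r = 0.76 without 2), but 14 of the 17 transcripts are themselves yolk-high, so these shares overlap by construction. With every transcript given equal weight, an alternative chosen after seeing the data, the values were -0.12 and 0.48 and neither passed. In 12 high-numbered embryos, r was -0.06 with the total (rho = -0.14) and -0.23 with the yolk-high share (rho = -0.36), and neither passed (permutation adjusted p = 0.85 and 0.632 for r); without 2 embryos they were 0.21 and -0.0007.

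Beyond the 27 calls most fitted changes were small. The median log2 change over 1811 transcripts was 0.06, with quartiles of -0.27 and 0.38. A change beyond 1 on the log2 scale was fitted for 70 transcripts upward, 7 of them called, and for 75 downward, 19 of them called. At an unadjusted p under 0.05 there were 228 transcripts (12.6%), 110 higher (6.07%) and 118 lower (6.52%) in stage 3, and 201 of the 228 were not called after adjustment. The balance of directions varied with where a transcript was highest in the libraries outside the step, given here as counts with no test between the classes. Of 557 transcripts highest in stages 4 to 6, 65 were higher (11.7%) and 6 lower (1.08%) at that threshold, with a median log2 change of 0.30 (0.28 in low-numbered and 0.18 in high-numbered embryos). Of 248 highest in stage 1, 6 were higher (2.42%) and 42 lower (16.9%), with a median of -0.17 (-0.40 and -0.09). All these class counts include the calls. The stage 1 class held 16 of the 20 called falls and 2 of the 7 called rises. The class of stages 4 to 6 held 3 called rises and 0 called falls. Of 757 highest in yolk, 26 were higher and 59 lower, with a median of -0.04 (-0.15 and 0.07, of opposite sign in the runs). Of 249 highest in stages 7 and 8, 13 were higher and 11 lower, with a median of -0.01 (-0.19 and -0.03).

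**Figure D5:**
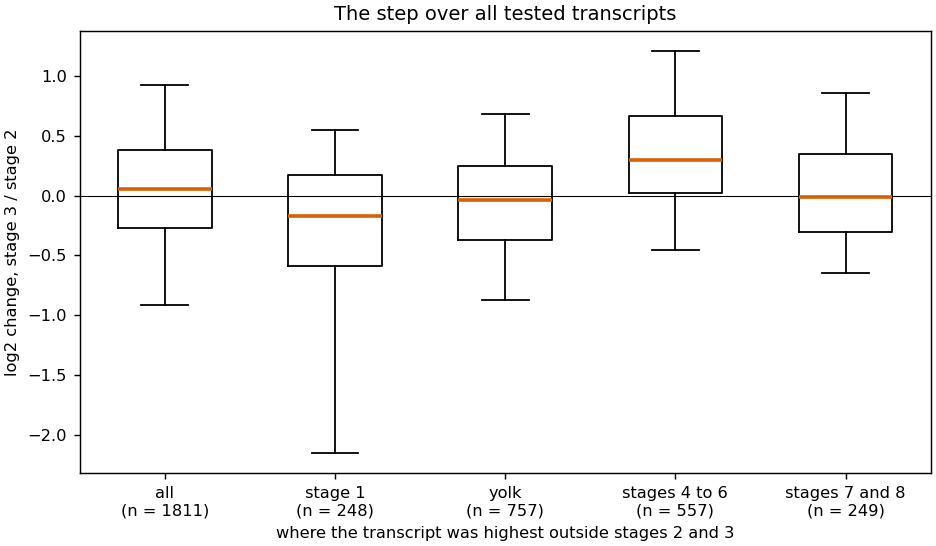
Log2 change from stage 2 to stage 3 (vertical) for 1811 tested transcripts and for those grouped by where they were highest outside stages 2 and 3; boxes span the quartiles, orange lines are medians and whiskers reach the 5th and 95th percentiles. The median is 0.30 for transcripts highest in stages 4 to 6 and -0.17 for those highest in stage 1, and the stage 1 box has the longest lower whisker.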

How the data were processed

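The deposited table holds read counts per transcript model, not normalized, made by the authors. HTSeq 0.5.4p3, Bowtie2 2.1.0 and CASAVA 1.8 are the tools listed in the submitters' processing notes. Those notes list a Drosophila build, and the numbered models carry no coordinates. Strand setting and molecular identifiers are not given in the sources used here. Of the reads in the 51 libraries 74.2% were not aligned and 1.47% fell in no feature; these stayed out of totals. Left out were 3 of 15124 transcript models whose counts follow the spike-ins (up to 46.6% of low-numbered counts).

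Counts were tested with edgeR 4.0.16 in R 4.3.3 (TMM, filterByExpr by stage, robust quasi-likelihood, a term for the run of sample numbers). Permutation tests drew 1e+05 permutations. Scripts were tested on simulated data. Alternatives used DESeq2 1.42.0 and limma 3.58.1. The members, lists and tests were chosen with earlier results of these data known. Named transcripts were the 2 largest rises and falls with at least 10 CPM and detection in 50% of libraries. Added were the 2 of each with the lowest unadjusted p in the weaker of the 2 runs, same direction in both. The middle rise and fall, and the 3 most like the largest fall, were also named. Replicate numbers follow the order of deposition.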

Additional observations from a re-analysis of the deposited data

Results flagged for a closer look

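Values that stood apart from the rest of their group were looked for in 19 groups of 4 to 10 libraries, where chance marks about 1 in 20. The summed share of the 16 yolk-poor falls was 0.08982% in yolk replicate 1, far from the other 3 yolk libraries, and 0.2918% in stage 4 replicate 5. Among low-numbered stage 3 embryos, FW_v1_tr_06595 was at 16780 CPM in replicate 5, FW_v1_tr_01056 at 2645 CPM in replicate 8 and FW_v1_tr_12089 at 1286 CPM in replicate 1. FW_v1_tr_06595 also reached 226300 CPM in the library labelled protist, which is outside the comparison of stages.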

How the results depend on the processing

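Against 27 calls, DESeq2 gave 43 (15 rises, 28 falls), no filter on low counts 789 (429 rises, 360 falls), deeper libraries alone (25% of the median total or more) 11, and all stages in 1 fit 977 (646 rises, 331 falls); the last and the unfiltered fit turn the balance toward rises, and the cause was not tested. Leaving out 1 embryo gave 12 to 46 calls. In low-numbered embryos, 9 calls became 15 with DESeq2, 18 with a minimum of 10 counts in 50% of the embryos of a stage and 173 with limma-voom; in high-numbered embryos, 0 became 11, 2 and 1. The held-out shares passed with a choice at p under 0.05 for falls (-0.71 and -0.98) and high-run rises (0.58), for the 3 of 17 high-run falls that are not yolk-high (-2.20), and, in an alternative chosen after seeing the data that weighs transcripts equally, for low-run rises (0.62) and high-run falls (-1.12). With equal weight, relations to the total and the yolk-high share in low-numbered stage 2 were -0.12 and 0.48; the relation to the total in high-numbered stage 2 was 0.032 with a choice at p under 0.05. Over the named transcripts, 70 of 87 other values kept their side of the threshold, 15 lost the call, 2 gained it and 0 reversed; 68 of 561 left-out values lost it. No paired analysis was possible because the labels name no capsule of origin and no embryo was sampled at both stages. Low-numbered depth limits what low transcripts can show.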
